A study of Mus musculus with 4 samples.

Results

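Wnt target and feedback genes are genes that are turned on when cells respond to Wnt signals and whose products, in most cases, limit or tune that response. The set described here comprised Axin2, Nkd1, Notum, Wif1, Znrf3, Rnf43, Lgr6, Lef1, Tcf7 and Sp5, which are 10 of the 23420 genes listed and were picked by symbol. All 10 had at least 100 reads over the 12 replicates and were among the 16076 genes tested. Expression was measured by RNA sequencing in cells sorted from cochleae of Atoh1-GFP transgenic mice on the CD1 background, dissected at postnatal day 1 and cultured overnight. The transgene places GFP under an enhancer of Atoh1, the transcription factor that specifies hair cells, and GFP positive cells were collected as hair cells while cells with weak GFP were gated out. GFP negative cells were collected as non-hair cells, a mixture of supporting cells, both epithelial ridges and surrounding tissue. Cochleae were left untreated (control) or given 0.5 mM gentamicin, an aminoglycoside antibiotic toxic to hair cells, for 3 h, which gave 4 groups of 3 replicates. All 4 groups carried the transgene and the same culture history. In such sorted bulk samples, fewer cells of a type and less RNA per cell cannot be told apart.

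In canonical Wnt signaling, secreted Wnt ligands bind Frizzled receptors with Lrp5 or Lrp6, a cytoplasmic destruction complex is held back, and β-catenin accumulates and joins transcription factors of the TCF/LEF family on target genes. Several targets feed back on the pathway: some rebuild the destruction complex, some remove receptors from the membrane and some inactivate ligands outside the cell. In the developing cochlea the pathway is known for its part in the growth of the sensory epithelium and in the capacity of supporting cells that carry Lgr5 to divide.

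TCF/LEF factors bind a core of CTTTGAT, and the stretches upstream of Sp5 and Axin2 are shown because these are commonly used readouts of the pathway, of which 1 held the core and 1 did not. Sp5, a transcription factor, lies at chr2:70474923-70477729 on the + strand, and Axin2, a scaffold of the destruction complex, at chr11:108920349-108950783 on the + strand (GRCm38, GENCODE). Each line gives the 250 bases before the start of the transcript, 5′ to 3′ on the + strand, from RefSeq (GRCm38.p6), at chr2:70474673-70474922 for Sp5 and chr11:108920099-108920348 for Axin2. Capitals mark the core.
Sp5: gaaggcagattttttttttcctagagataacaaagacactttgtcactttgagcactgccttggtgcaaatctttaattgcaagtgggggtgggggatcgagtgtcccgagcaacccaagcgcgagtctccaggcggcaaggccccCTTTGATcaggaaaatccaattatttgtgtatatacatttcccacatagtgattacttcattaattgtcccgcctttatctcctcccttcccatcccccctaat
Axin2: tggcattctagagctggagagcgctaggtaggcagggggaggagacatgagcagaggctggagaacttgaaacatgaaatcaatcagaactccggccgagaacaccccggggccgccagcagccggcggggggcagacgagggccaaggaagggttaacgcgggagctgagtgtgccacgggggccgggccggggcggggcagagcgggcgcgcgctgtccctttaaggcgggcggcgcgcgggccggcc

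The Sp5 core began 104 bases before the transcript start. RefSeq windows of 250 bases before and 50 after a start were found for 8 of the 10 genes, as 13 windows, and were missing for Notum and Znrf3. Counting both strands, CTTTGAT was present in 1 of the 13 windows (Sp5), and in 3.73% of all 32851 windows. The shorter core CTTTG, which lies inside the longer one, was present in 6 of the 13 windows (of Lef1, Sp5 and Wif1) and in 53.9% of all windows. A match describes letters in the window and not a bound site. A window without the core, such as that of Axin2, says nothing of sequence outside it.

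The deposited normalized read scores were reads scaled within each replicate, to which 1 had been added, and they were not divided by gene length. The scores are given below as deposited. The added 1 stays in the log2 values and shrinks the differences of genes with low scores. Between 22395037 and 28146016 reads per replicate fell on genes, with a median of 25108737. The sort showed in its markers. The summed score above 1 of 8 hair cell genes, among them Atoh1, Pou4f3 and Myo7a, was 11080–11490 in control hair cells and 218–251 in control non-hair cells. Differences were tested with limma on log2 scores in 1 model of all 4 groups, and the criteria for a called change were a p, before adjustment, below 0.01 and a fold change over 1.2. Adjusted p-values are Benjamini-Hochberg values over all genes tested.

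**Figure D1:**
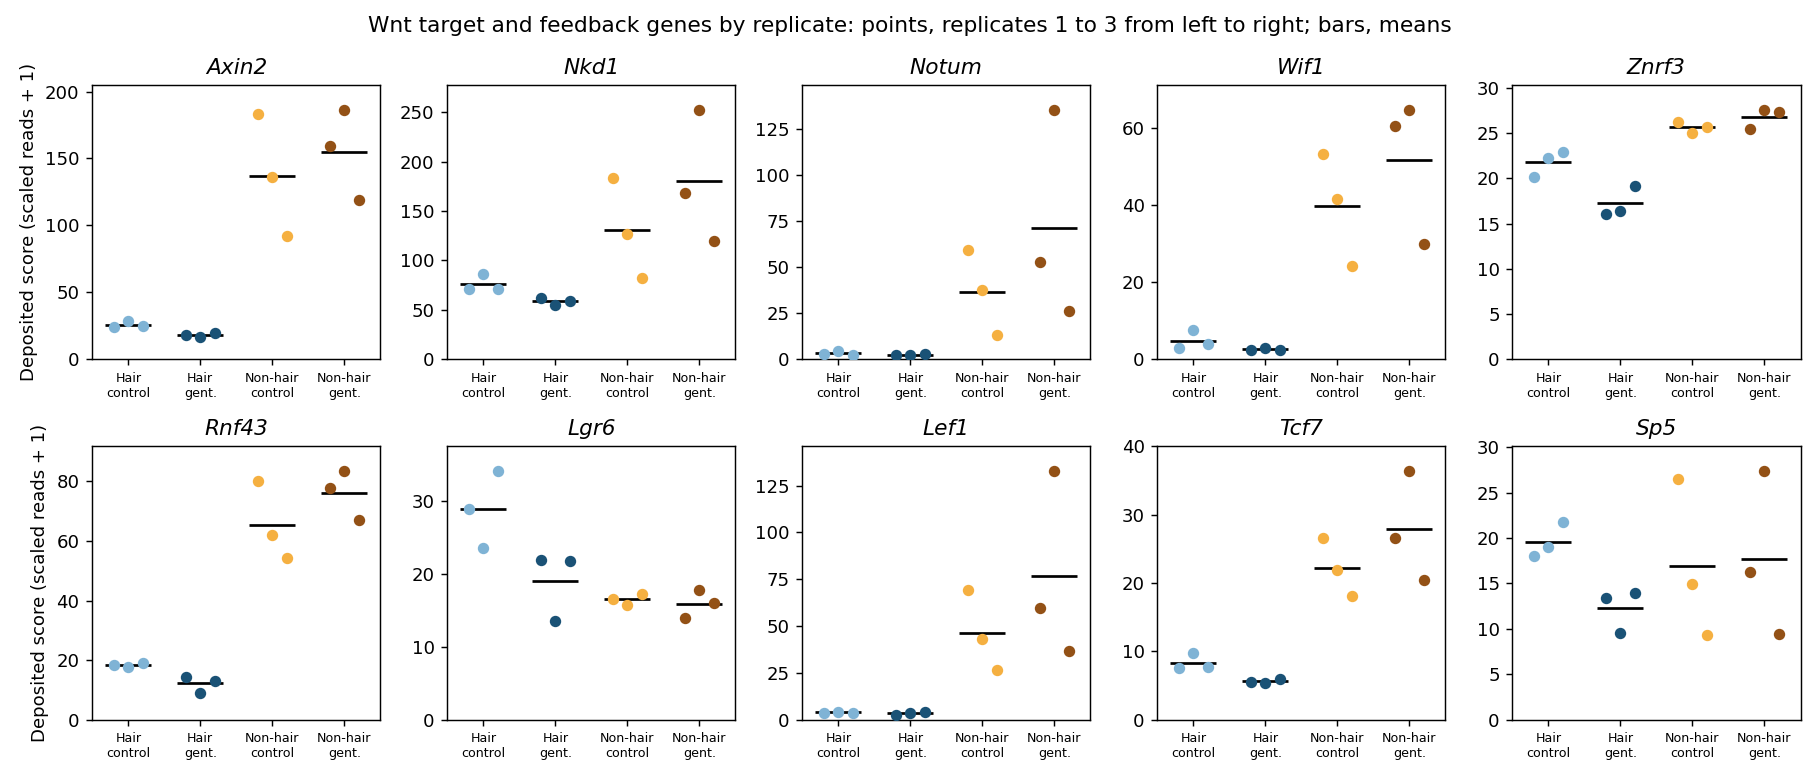
Deposited score (vertical axis, scaled reads plus 1, linear from 0, with its own range in each panel) of the 10 genes in the 4 groups, with a point for each of 3 replicates and a bar for the mean. For Axin2, Notum, Wif1, Rnf43, Lef1 and Tcf7 all non-hair points lie above the hair points, Lgr6 is highest in control hair cells, and non-hair replicates of one group spread by up to 5.24-fold (Notum, gentamicin).

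The control populations were compared first, to show where the genes were expressed before treatment. In these libraries 6 of the 10 genes were higher in non-hair cells, 1 was higher in hair cells and 3 did not meet the criteria. Of all genes tested, 37.7% were higher in non-hair cells and 65.8% differed in either direction, so many genes separated these populations. The median log2 difference (non-hair minus hair) of the 10 genes was 1.61, against 0.12 for all genes tested. Replicates lay higher in non-hair cells without overlap for 7 of the 10 genes and for 44.6% of all genes. With 3 replicates against 3, the smallest p of an exact permutation test is 0.10, and it can therefore not reach 0.05 for any gene.

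Lef1, a DNA-binding partner of β-catenin (chr3:131110471-131224356, + strand), had scores of 3.70, 4.39 and 3.59 in control hair cells and 69.1, 42.9 and 26.7 in control non-hair cells. Every non-hair replicate was far above every hair replicate, and the log2 difference was 3.47 (SE 0.43, limma adjusted p = 1.58e-05). Tcf7, the related factor TCF1 (chr11:52252371-52283014, − strand), had scores of 7.60, 9.72 and 7.73 in control hair cells and 26.7, 21.9 and 18.1 in control non-hair cells. The groups did not overlap, and the log2 difference was 1.40 (SE 0.21, limma adjusted p = 6.75e-05). Sp5 behaved otherwise. Its scores were 18.0, 19.0 and 21.7 in control hair cells and 26.5, 14.9 and 9.34 in control non-hair cells. The hair values lay inside the non-hair range, and the log2 difference of −0.34 (95% confidence interval −1.20 to 0.53) did not meet the criteria.

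The secreted antagonists had low scores in hair cells and both were higher in non-hair cells. Notum, an enzyme that removes the lipid from Wnt ligands (chr11:120653788-120661175, − strand), had scores of 2.52, 4.51 and 2.38 in control hair cells and 59.3, 37.3 and 12.8 in control non-hair cells. Its log2 difference was 3.34 (SE 0.60, limma adjusted p = 0.000352), and the groups did not overlap although non-hair replicates differed by 4.63-fold. Wif1, which binds and sequesters Wnt ligands (chr10:121033960-121100650, + strand), had scores of 2.91, 7.59 and 3.81 in control hair cells and 53.4, 41.6 and 24.1 in control non-hair cells. All non-hair replicates were higher, by 3.10 on the log2 scale (SE 0.40, limma adjusted p = 2.16e-05). Notum and Tcf7 overlap annotated antisense genes, and Nkd1 and Rnf43 overlap other annotated loci. The methods describe no strand-specific library, so reads of the overlapping genes cannot be told apart here.

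Of the intracellular antagonists, Axin2 differed and Nkd1 did not meet the criteria. Axin2 scores were 24.0, 28.5 and 24.6 in control hair cells and 183, 136 and 92.0 in control non-hair cells. The groups were well apart, with a log2 difference of 2.36 (SE 0.22, limma adjusted p = 1.56e-06). Nkd1, which binds Dishevelled and dampens its signal (chr8:88521354-88594884, + strand), had scores of 71.3, 86.1 and 71.2 in control hair cells and 184, 127 and 81.7 in control non-hair cells. The lowest non-hair replicate fell below the highest hair replicate, and the log2 difference was 0.71 (SE 0.28, unadjusted p = 0.0296, limma adjusted p = 0.0406).

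The genes of receptor turnover went different ways. Rnf43 (chr11:87662722-87735539, + strand) and Znrf3 (chr11:5276324-5444847, − strand) encode related ubiquitin ligases that remove Frizzled receptors from the membrane, and Lgr6 (chr1:134983301-135105276, − strand) encodes a receptor for R-spondins, the ligands that block those ligases. Rnf43 scores were 18.2, 17.7 and 19.0 in control hair cells and 80.0, 62.0 and 54.1 in control non-hair cells. These groups were far apart, with a log2 difference of 1.82 (SE 0.18, limma adjusted p = 2.20e-06). Znrf3 scores were 20.2, 22.2 and 23.0 in control hair cells and 26.3, 24.97 and 25.7 in control non-hair cells. The Znrf3 groups did not overlap but lay close together, and the log2 difference of 0.24 (SE 0.09, limma adjusted p = 0.0372) did not meet the criteria. Lgr6 scores were 28.9, 23.5 and 34.1 in control hair cells and 16.6, 15.7 and 17.3 in control non-hair cells. All hair replicates were higher for Lgr6, and its log2 difference (non-hair minus hair) was −0.79 (SE 0.19, limma adjusted p = 0.00289).

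**Figure D2:**
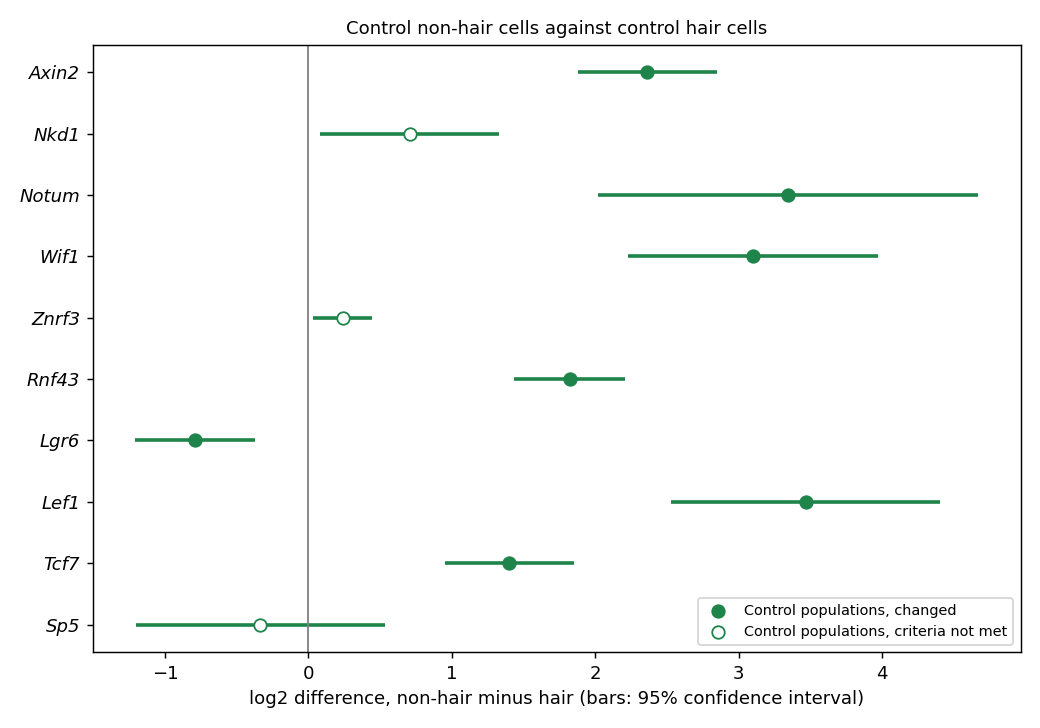
Log2 difference between control non-hair and control hair cells (horizontal axis, non-hair minus hair) for each of the 10 genes, with bars for 95% confidence intervals, filled points for genes that met the criteria and open points for the rest. Lef1 (3.47), Notum (3.34) and Wif1 (3.10) lie furthest to the right, and Lgr6 (−0.79) is the filled point left of 0.

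Per kilobase of annotated exon, with the added 1 taken off, the order of the genes differed between the populations. In control hair cells Nkd1 was highest at 16.5 per kilobase (range 15.4–18.7), followed by Sp5 at 8.85 (8.10–9.88), and these ranges overlapped neither each other nor the next gene. Axin2 (4.49), Lgr6 (4.06), Tcf7 (2.81), Rnf43 (2.64), Znrf3 (2.63), Wif1 (1.55) and Notum (0.886) followed, each overlapping the next, and Lef1 was lowest at 0.329, below every replicate of Notum. In control non-hair cells Nkd1 (28.5), Axin2 (24.7), Wif1 (15.9), Notum (14.7), Rnf43 (9.81), Tcf7 (8.10), Sp5 (7.58), Lef1 (5.15) and Znrf3 (3.12) each overlapped the next gene in the order, and Lgr6 was lowest at 2.26 without overlap with Znrf3. Sp5 thus ranked 2 in hair cells and 7 in non-hair cells.

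Markers of other cell types give a scale for the low hair cell values. With the added 1 taken off, the control hair cell level was 6.02% of the control non-hair cell level for Notum, 6.40% for Lef1 and 9.75% for Wif1. The median share was 7.03% over 9 mesenchymal markers (range 3.70–81.0%), 8.26% over 10 endothelial markers (2.49–72.6%), 25.3% over 6 Schwann cell markers (16.8–51.7%) and 3.47% over 7 macrophage markers (1.81–31.5%). None of these markers was at 0 in all replicates of a group. Notum and Lef1 were thus below the mesenchymal median and Wif1 above it. Axin2 (18.2%), Rnf43 (26.9%), Tcf7 (34.65%), Nkd1 (57.9%) and Znrf3 (84.3%) were also above it. Lgr6 (179.5%) and Sp5 (117%) were above 100%, as was the median of 8 supporting cell markers (137%, range 81.7–379.6%). Whether RNA from other cells contributed to the hair cell values was not tested.

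Gentamicin was then compared with control in hair cells. All 10 log2 changes were below 0, from −0.82 (Wif1) to −0.18 (Lef1), with a median of −0.54 against −0.09 for all genes tested. Of the 10 genes, 3 were called lower (Rnf43, Lgr6 and Znrf3) and none was called higher. Of all genes tested, 14.8% were called lower and 27.5% in either direction. Treated replicates lay below control replicates without overlap for 8 of the 10 genes and for 33.1% of all genes, and after scaling by total reads for 7 of 10 and 24.6%.

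In the model of all 4 groups the 3 genes called lower were those of receptor turnover, although Wif1 (−0.82) and Sp5 (−0.69) had larger log2 changes without meeting the criteria. Which genes were called depended on the fit, as given below. Rnf43 scores were 18.2, 17.7 and 19.0 in control and 14.4, 9.08 and 13.0 in treated hair cells. All treated replicates were lower, the 2nd most of all, and the gene fell by 0.62 on the log2 scale (SE 0.18, limma adjusted p = 0.0211). Lgr6 scores were 28.9, 23.5 and 34.1 in control and 21.8, 13.6 and 21.8 in treated hair cells. Again the 2nd treated replicate was lowest, and the fall was 1.53-fold (SE 0.19 on the log2 scale, limma adjusted p = 0.0300). Znrf3 scores were 20.2, 22.2 and 23.0 in control and 16.1, 16.4 and 19.2 in treated hair cells. The Znrf3 groups were separate by a small margin, and the fall was 1.27-fold (SE 0.09 on the log2 scale, limma adjusted p = 0.0168).

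Another 5 genes were lower in every treated hair cell replicate but did not meet the criteria. Axin2 scores were 24.0, 28.5 and 24.6 in control and 18.2, 16.1 and 19.2 in treated hair cells, with a log2 change of −0.53 (SE 0.22, limma adjusted p = 0.0869). Tcf7 scores were 7.60, 9.72 and 7.73 in control and 5.58, 5.44 and 5.92 in treated hair cells, with a log2 change of −0.56 (SE 0.21, limma adjusted p = 0.0570). For both genes the replicates within each group were close together. Sp5 scores were 18.0, 19.0 and 21.7 in control and 13.4, 9.58 and 13.9 in treated hair cells, with a log2 change of −0.69 (SE 0.39, limma adjusted p = 0.204). Nkd1 scores were 71.3, 86.1 and 71.2 in control and 62.2, 55.0 and 59.2 in treated hair cells, with a log2 change of −0.37 (SE 0.28, limma adjusted p = 0.346). The standard errors of Sp5 and Nkd1 were large beside the spread of their hair cell values, since all groups share 1 estimate of the spread and their non-hair replicates varied by more. Wif1 scores were 2.91, 7.59 and 3.81 in control and 2.36, 2.80 and 2.32 in treated hair cells, with a log2 change of −0.82 (SE 0.40, limma adjusted p = 0.134). The 2nd control replicate was the highest, and without it the change was −0.42 (limma adjusted p = 0.454).

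Notum and Lef1 overlapped between treated and control hair cells. Notum scores were 2.52, 4.51 and 2.38 in control and 2.07, 2.30 and 2.60 in treated hair cells, with a log2 change of −0.38 (95% confidence interval −1.70 to 0.95). Lef1 scores were 3.70, 4.39 and 3.59 in control and 2.65, 3.85 and 3.92 in treated hair cells, with a log2 change of −0.18 (95% confidence interval −1.12 to 0.75). Both intervals include changes in either direction. Without control replicate 2 the log2 change of Notum was −0.08.

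The calls depended on the fit. In a fit of the 2 hair cell groups alone, 5 of the 10 genes were called lower, namely Rnf43, Axin2, Nkd1, Sp5 and Tcf7, while Lgr6 and Znrf3 were not, and 31.5% of all genes were called in either direction. Scaling by total reads, which moved the median of all genes in hair cells from −0.09 to −0.01, left 0 of the 10 genes called, and 27.2% of all genes. The log2 changes then ran from Wif1 at −0.75 to Lef1 at −0.11, still all below 0. Without treated replicate 2 or without control replicate 3, 0 of the 10 genes were called, and without control replicate 1 or 2 it was 1 gene, Znrf3 and Lgr6 respectively.

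**Figure D3:**
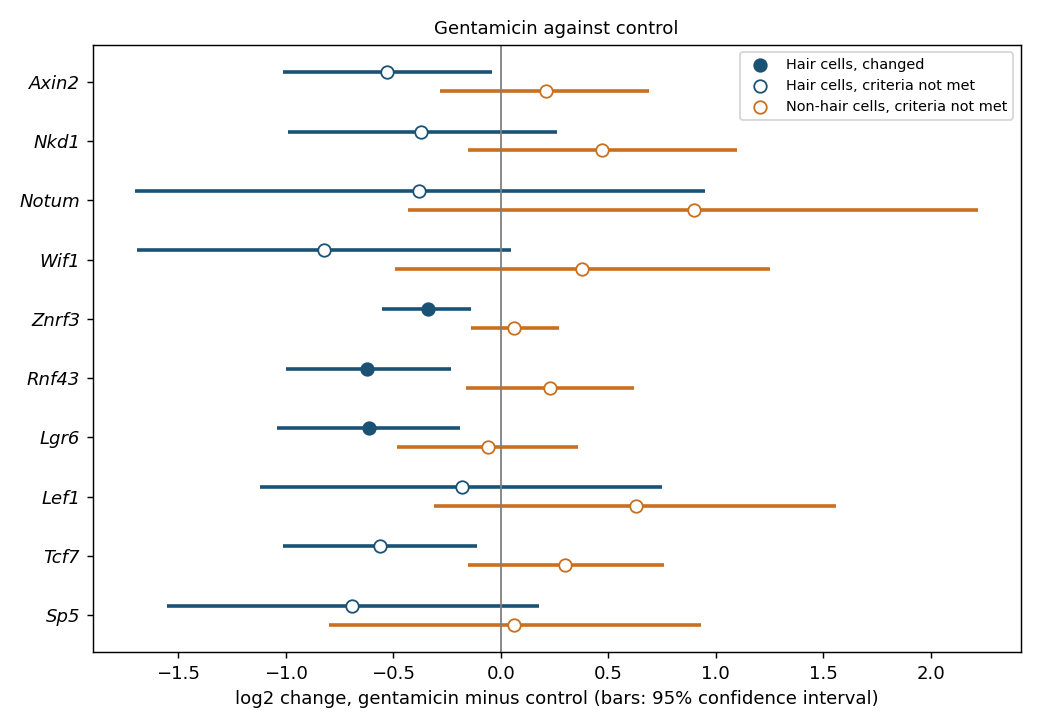
Log2 change (horizontal axis, gentamicin minus control) of each of the 10 genes in hair cells and in non-hair cells, with bars for 95% confidence intervals, filled points for genes that met the criteria and open points for the rest. All 10 hair cell points lie left of 0, 9 of 10 non-hair points lie right of 0, and the 3 filled points are Znrf3, Rnf43 and Lgr6 in hair cells.

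Summed markers of several other cell types also ran lower in treated than in control hair cells, while those of macrophages did not. The summed score above 1 of 8 supporting cell markers ranged over 1835–2141 in control hair cells and over 917–1545 in treated ones, and 2 of the 8 were called lower. The lowest sum was in treated replicate 2, the replicate that was lowest for 6 of the 10 genes. Schwann cell sums were also lowest in that replicate. Among the treated replicates alone, mesenchymal and macrophage sums were lowest in replicate 1, and endothelial sums were lowest in replicate 3 and highest in replicate 2. The mesenchymal sum ran from 556 to 806 in control and from 371 to 453 in treated hair cells, with 4 of 9 markers called lower. Its largest part was Pdgfra, which was not called and in control hair cells stood at 81.0% of its non-hair level. Pdgfra scores were 284, 249 and 297 in control and 191, 257 and 230 in treated hair cells. Endothelial sums were 40.5–63.1 and 29.7–42.3, with 1 of 10 called lower. Egfl7, at 72.6% of its non-hair level and not called, was the largest part of the endothelial sums. Schwann cell sums were 119–152 and 76.9–110, with 2 of 6 called lower. Macrophage sums were 3.0–4.4 and 4.0–5.9, with 0 of 7 called. The hair cell list itself summed to 11080–11490 in control hair cells and 9420–10580 in treated ones, with 0 of 8 called. The part of other cells in the lower values of the 10 genes was not tested.

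**Figure D4:**
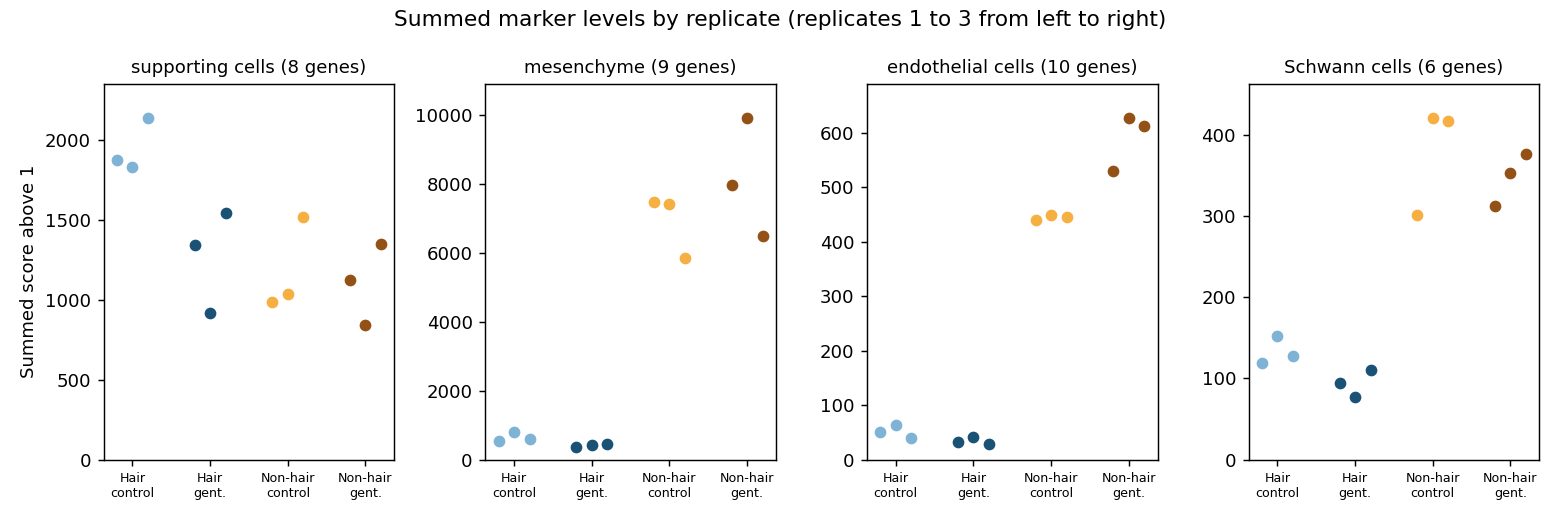
Summed score above 1 (vertical axis, linear from 0) of 4 marker lists in the 4 groups, with a point for each of 3 replicates. Treated hair cells lie below control hair cells without overlap for supporting cell, mesenchymal and Schwann cell markers, and in non-hair cells mesenchymal sums run from 5851 to 9913, with treated replicate 2 highest and replicate 3 lowest in both groups. In hair cells Pdgfra is the largest part of the mesenchymal sum, and Hey2 of the supporting cell list is higher with gentamicin.

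In non-hair cells gentamicin gave 0 called changes among the 10 genes, against 5.44% of all genes, and 0 of the 10 had an unadjusted limma p under 0.05. Of the 10 log2 changes 9 were above 0 and Lgr6 was at −0.06, with a median of 0.27 against −0.01 for all genes. No gene was free of overlap between treated and control replicates in either direction, compared with 10.1% of all genes higher and 7.67% lower. The widest values were those of Notum, with 59.3, 37.3 and 12.8 in control and 52.5, 135 and 25.8 in gentamicin-treated non-hair cells. Its log2 change was 0.90 with a 95% confidence interval of −0.43 to 2.22. Lef1 scores were 69.1, 42.9 and 26.7 in control and 59.9, 133 and 36.8 in gentamicin-treated non-hair cells, with a log2 change of 0.63 (95% confidence interval −0.31 to 1.56). In both genes treated replicate 2 stood alone above all others. The narrowest values were those of Znrf3, with 26.3, 24.97 and 25.7 in control and 25.5, 27.6 and 27.4 in gentamicin-treated non-hair cells. Its log2 change was 0.06, and the 95% confidence interval of −0.14 to 0.27 was narrow.

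The remaining genes overlapped in the same manner. Axin2 was at 183, 136 and 92.0 in control and 159, 186 and 119 in gentamicin-treated non-hair cells. Nkd1 was at 184, 127 and 81.7 in control and 168, 252 and 120 in gentamicin-treated non-hair cells. Rnf43 was at 80.0, 62.0 and 54.1 in control and 77.9, 83.6 and 66.9 in gentamicin-treated non-hair cells. For these genes, too, treated replicate 2 was highest and replicate 3 lowest in both groups. Wif1 was at 53.4, 41.6 and 24.1 in control and 60.5, 64.7 and 29.9 in gentamicin-treated non-hair cells. Tcf7 was at 26.7, 21.9 and 18.1 in control and 26.7, 36.5 and 20.5 in gentamicin-treated non-hair cells. Sp5 was at 26.5, 14.9 and 9.34 in control and 16.3, 27.4 and 9.47 in gentamicin-treated non-hair cells. Lgr6, at 16.6, 15.7 and 17.3 in control and 13.9, 17.8 and 16.0 in gentamicin-treated non-hair cells, did not share that order.

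Most of the genes shared the order of their replicates in non-hair cells. Treated replicate 2 was highest for 10 of 10 genes and treated replicate 3 was lowest for 8. Control replicate 1 was highest for 9 genes and control replicate 3 was lowest for 8. Mesenchymal sums had the same extremes, at 7481, 7417 and 5851 in control and 7959, 9913 and 6501 in gentamicin-treated non-hair cells, whereas supporting cell sums were highest in replicate 3 of both groups, at 1523 and 1350. Without treated replicate 2 the log2 change of Lef1 in non-hair cells was 0.13 and that of Notum 0.27. The part of cell composition in this spread was not tested.

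The difference between the responses (hair cell change minus non-hair cell change) was tested in the same model. It was below 0 for all 10 genes, with a median of −0.82 against −0.07 for all genes, and 1 gene was called, against 15.8% of all genes. The called gene was Rnf43, at −0.85 (SE 0.25, limma adjusted p = 0.0461). Under the alternatives tried, its adjusted p ranged from 0.0251 to 0.0985 and its difference from −1.0 to −0.65. The call was lost with scaling by total reads, with voom weights, without any 1 of the 3 control hair cell replicates, without control non-hair cell replicate 2 or 3, and without treated non-hair cell replicate 1 or 2. Tcf7 (−0.86, limma adjusted p = 0.0721), Znrf3 (−0.41, limma adjusted p = 0.0652) and Axin2 (−0.74, limma adjusted p = 0.139) did not meet the criteria. With the replicate number as a block 3 genes were called, Rnf43, Tcf7 and Znrf3.

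The rest of the pathway was read from lists of 88 other genes, of which 79 were tested. In hair cells 22 were called lower with gentamicin and 5 higher, with a median log2 change of −0.40. Of all genes tested, 14.8% were called lower, 27.5% in either direction, and the median was −0.09. Receptors and R-spondins had 9 of 18 called lower and 0 higher. The 9 were Fzd1, Fzd2, Fzd3, Fzd4, Fzd8, Fzd9, Lrp5, Lrp6 and Lgr4, all of them receptors. The R-spondins Rspo1, Rspo2 and Rspo3 were not called, but their mean scores in control hair cells were low, at 1.711, 2.845 and 1.231. The log2 change of Rspo2 was −0.65 (SE 0.25, limma adjusted p = 0.0716). Nuclear partners had 5 of 11 lower and 2 higher, cytoplasmic transducers 2 of 13 lower and 3 higher, ligands and their secretion 2 of 15 lower, secreted and membrane inhibitors 2 of 14 lower, and other genes described as targets 2 of 8 lower.

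Fzd1, a Frizzled receptor, had scores of 51.4, 56.6 and 54.6 in control and 22.6, 16.3 and 24.7 in treated hair cells. The groups were far apart, with a fall of 1.38 on the log2 scale (SE 0.16, limma adjusted p = 0.000187). Draxin, a secreted axon guidance protein that also inhibits Wnt signaling, had scores of 179, 179 and 215 in control and 67.3, 76.4 and 71.1 in treated hair cells. It fell by 1.41 on the log2 scale (SE 0.28, limma adjusted p = 0.00299). Fzd4, another Frizzled receptor, fell by 1.09 (SE 0.20, limma adjusted p = 0.00204), and Ccnd2, which encodes the cell cycle protein cyclin D2, fell by 1.12 (SE 0.27, limma adjusted p = 0.00980) from scores of 6.92, 13.1 and 7.48 to 3.60, 3.89 and 4.67. Ccnd2 was at 5.81% of its non-hair level in control hair cells, where the mesenchymal markers ranged widely, over 3.70–81.0% with a median of 7.03%. Whether RNA from other cells contributed to the fall of Ccnd2 was not tested.

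The largest rises in hair cells were in genes of the nuclear and cytoplasmic machinery. Tle3, a corepressor of TCF/LEF factors, rose from 205, 204 and 194 to 272, 369 and 299, a log2 change of 0.63 (SE 0.10, limma adjusted p = 0.000781). Pygo2, a coactivator of β-catenin, rose from 92.2, 92.7 and 91.0 to 128, 153 and 135, a log2 change of 0.59 (SE 0.09, limma adjusted p = 0.000570). Btrc, which marks phosphorylated β-catenin for degradation, rose by 0.40 (SE 0.09, limma adjusted p = 0.00800), and Axin1, the constitutive counterpart of Axin2 in the destruction complex, by 0.35 (SE 0.08, limma adjusted p = 0.00732). Axin1 was at 65.3, 67.8 and 62.0 in control and 75.7, 85.5 and 88.4 in treated hair cells. The log2 change of Axin1 was thus above 0 and that of Axin2 below 0 in the same libraries, with only the first meeting the criteria.

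In non-hair cells 2 of the 79 genes were called, against 5.44% of all genes, both higher and both with an adjusted p over 0.05. Sox17, a transcription factor of endoderm and endothelium, was at 7.98, 8.68 and 11.0 in control and 16.6, 11.1 and 18.7 in gentamicin-treated non-hair cells, a log2 change of 0.73 (SE 0.20, limma adjusted p = 0.116), and its call was lost in 6 of 14 alternatives. Endothelial sums ranged over 440–449 in control and 529–627 with gentamicin. Of the 10 markers 2 were called higher, Egfl7 (mean score 35.3 to 91.6) and Cldn5 (31.6 to 70.0). The other 8 did not meet the criteria, and the log2 changes of Pecam1 (−0.27) and Flt1 (−0.19) were below 0. The part of endothelial cells in the Sox17 value was not tested. Wnt6, a ligand, was at 15.1, 14.5 and 13.4 in control and 20.1, 22.8 and 19.3 in gentamicin-treated non-hair cells, a log2 change of 0.53 (SE 0.12, limma adjusted p = 0.0788). Between the responses of the populations 14 of the 79 genes were called, 12 with a lower and 2 with a higher value in hair cells, against 15.8% of all genes.

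Between the control populations 43 of the 79 genes were higher in non-hair cells and 15 higher in hair cells, while 37.7% of all genes were higher in non-hair cells and 65.8% differed in either direction. Ccnd2 (log2 difference 3.96, SE 0.27), Fzd10 (3.78, SE 0.46), Wnt6 (3.65, SE 0.12) and Apcdd1, a membrane inhibitor of the pathway (3.32, SE 0.28), were furthest towards non-hair cells among those named. The order depends on the added 1. Wnt6 had a mean score of 1.145 in control hair cells, which was 1.09% of its non-hair level with the added 1 taken off. Its log2 difference reached 6.37 under the alternatives. Draxin (−3.68, SE 0.28), Fzd6 (−2.06, SE 0.22), Lgr5 (−1.72, SE 0.28) and Fzd4 (−1.53, SE 0.20) were furthest towards hair cells. Lgr5, an R-spondin receptor known in supporting cells, was at 147, 129 and 183 in control hair cells and 37.0, 39.0 and 67.1 in control non-hair cells, so both Lgr5 and Lgr6 were higher in the GFP positive population. Supporting cell sums were also higher there, at 1835–2141 against 987–1523, although only 2 of the 8 markers were called higher in hair cells and 6 were not called.

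**Figure D5:**
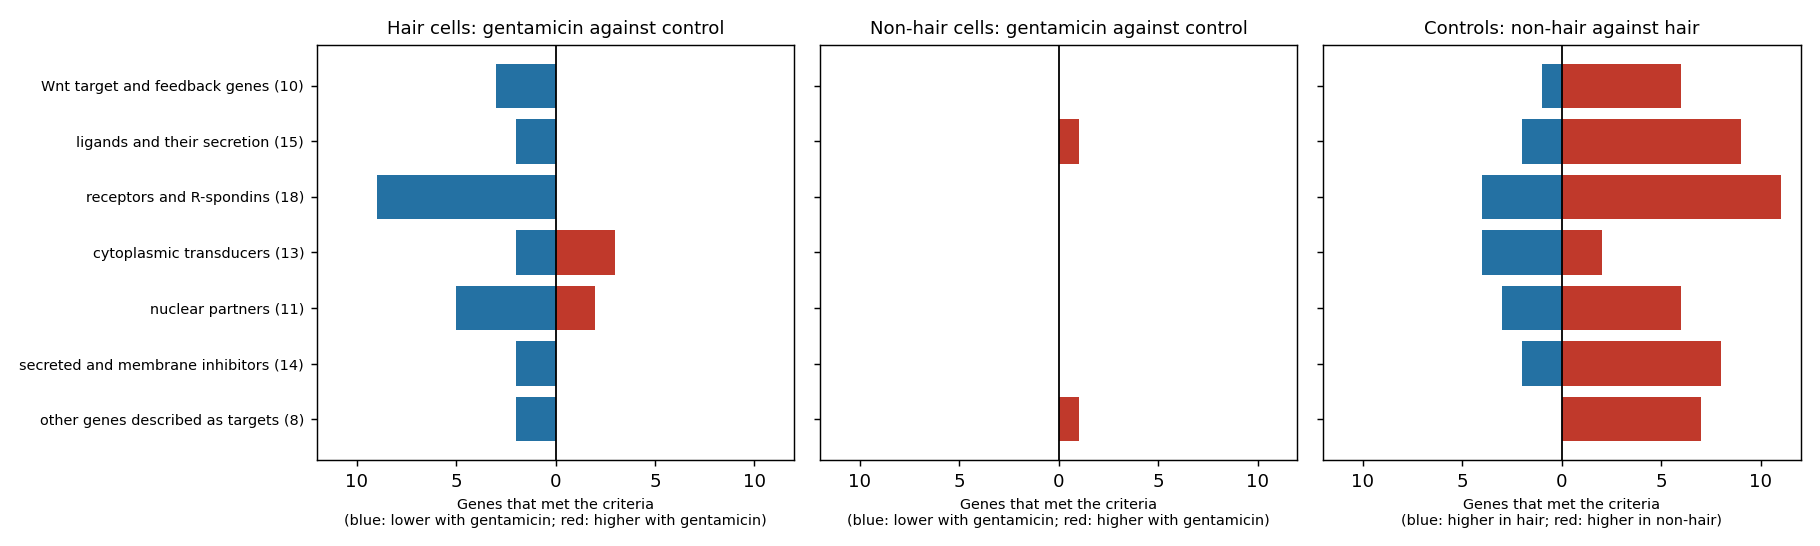
Number of genes that met the criteria (horizontal axis) in the Wnt target and feedback genes and in 6 lists of other pathway genes, with the number tested in brackets, in 3 comparisons, where blue bars to the left are genes lower with gentamicin or higher in hair cells and red bars to the right the opposite. The longest bar in treated hair cells is that of receptors and R-spondins, with 9 of 18 lower, and non-hair cells have 2 called genes over all lists.

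The genes most like Axin2, Lef1 and Lgr6 over the 12 replicates were found among 13638 genes by Pearson's r of log2 scores. All points share the large difference between the populations, which sets much of r. For Axin2 they were Igdcc4 (0.998), the retinoic acid receptor gene Rarb (0.998) and Hspa12b (0.997), and within the 6 non-hair replicates r was 0.97, 0.98 and 0.97. For Lef1 they were Nov (0.997), Slco1c1 (0.997) and Chst7 (0.996), with r of 0.99, 0.98 and 0.99 within the 6 non-hair replicates. In hair cells r with Lef1 was lower, at 0.87, 0.65 and 0.61. For Lgr6 they were Arl6ip1 (0.951), Gm5607 (0.932) and the receptor gene Fzd3 (0.925), and r within the 6 non-hair replicates was 0.44, 0.86 and −0.11. Within the 6 hair cell replicates r with Lgr6 was 0.98, 0.89 and 0.96.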

How the data were processed

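RNA of FACS-sorted cochlear hair cells and of the GFP negative rest, with and without gentamicin, was analysed in 3 replicates per group. The authors trimmed 50 bp single-end reads at both ends by quality, aligned them to mm10 with TopHat 2 in PartekFlow and deposited normalized scores, 1 per gene in every replicate. The methods describe division by gene length, but low scores minus 1 were whole multiples of 1 step for 83.3–84.5% of values of up to 20 reads (tolerance 0.1 read), so the scores were treated as scaled reads plus 1; the scaling factor is not given in the sources used here. Dividing by the step gave the read numbers used as depth. That share was too low for a count test.

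Genes with at least 100 recovered reads over 12 replicates were fitted with limma 3.58.1 (R 4.3.3) on log2 scores, with a variance trend and contrasts for each comparison; p-values are two-sided. Tables were handled with Python 3.11.15 and pandas 2.3.3. The procedure was tested on simulated data in which all groups had the same spread. The spread between replicates here differed between groups, so that test cannot show how the calls hold under unequal spread. Exon lengths and positions came from GENCODE M21. The labels give no source animals or cultures for single replicates, so p-values measure the spread between these samples. Replicate numbers come from the file headers. Same-numbered control hair and non-hair replicates deviated together (r = 0.216, 0.316 and 0.200), whereas in the gentamicin comparisons not every same-numbered pair did. The values given come from the fit without a replicate block; the fit with the block called the same 7 of the 10 genes between the control populations. The 10 genes and all gene lists were chosen with earlier results of these data known. All 10 genes are named in each comparison, and of the other pathway genes up to 4 called genes per direction with the largest log2 change whose mean score reached 5 in the group with more reads. The 9 receptors called lower in hair cells, and Rspo1 to Rspo3, were named after their values were seen. Alternatives were other scalings, an offset of 0.1, a minimum of 1000 reads or none, voom weights, a replicate block, fits of 2 groups, other criteria, and leaving out each replicate.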

Additional observations from a re-analysis of the deposited data

Results flagged for a closer look

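Of the genes named, 6 stood out because the test of the difference between the responses of hair cells and non-hair cells had a limma adjusted p under 0.05 (log2 values, hair cell change minus non-hair cell change). Rnf43 was at −0.85 (adjusted p = 0.0461), and the 3 treated hair cell replicates were all lower than control while the non-hair replicates overlapped. Fzd1 was at −1.48 (adjusted p = 0.00437), Draxin at −1.71 (adjusted p = 0.0173) and Bambi, a membrane pseudoreceptor that inhibits TGF-β signaling, at −1.23 (adjusted p = 0.0455). The call of Rnf43 was lost in 9 of 19 alternatives and that of Bambi in 7 of 19, with an adjusted p of up to 0.1 for Bambi. Pygo2 was at 0.61 (adjusted p = 0.0103) and Tle3 at 0.53 (adjusted p = 0.0291). Sox17 (−0.88, adjusted p = 0.0615) met the criteria of an unadjusted p under 0.01 but not an adjusted p under 0.05, and its call was lost in 16 of 19 alternatives (adjusted p from 0.0156 to 0.209).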

How the results depend on the processing

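With groups of 3, precision is limited by the spread between replicates. In control non-hair against hair cells, 7 genes were called, and 6 to 9 under the alternatives. In non-hair cells 0 were called under every alternative run. In hair cells the count of 3 became 0 with scaling by total reads and 5 with only the 2 groups compared, and ran from 0 to 3 when 1 replicate was left out. For the difference between responses the count of 1 became 0 with scaling by total reads, 3 with an offset of 0.1, 2 with a minimum of 1000 reads or with none, and 3 with the replicate block, and ran from 0 to 4 with 1 replicate left out, 4 of them without control non-hair replicate 1. The replicate block changed no other count of the 10 genes. Of the other pathway genes in non-hair cells, 2 were called, 0 with an offset of 0.1, 1 with only the 2 groups compared, 0 at an adjusted p under 0.05, and 1 to 4 with 1 replicate left out; for the difference between responses, 14 were called, and 8 to 18 with 1 replicate left out. Median-of-ratios scaling moved the median of all genes between the populations from 0.12 to 0.01. With a single replicate left out, log2 changes on the other side of 0 were seen for Lef1 in hair cells (0.00 without treated replicate 1, range −0.28 to 0.00), in non-hair cells for Axin2 (−0.05 without control replicate 3, range −0.05 to 0.44), Lgr6 (0.03 without treated replicate 1, range −0.14 to 0.03) and Sp5 (−0.30 without control replicate 3 and −0.32 without treated replicate 2, range −0.32 to 0.45), and between populations for Sp5 (0.03 without control non-hair replicate 3, range −0.73 to 0.03). None of these had met the criteria. The cause was not tested.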
